A study of Homo sapiens with 2 samples.

Results

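Aminoacyl-tRNA synthetases are the enzymes that join each amino acid to its tRNA, the step that fixes how the genetic code is read. Nuclear genes encode one set for the cytosol and a separate set for the mitochondrial matrix, where the names of most enzymes carry the suffix 2. The rule that chose the genes used symbols and no measured values, but the family was picked with earlier results of these data known. The rule took every probe set with a single gene symbol of the form of a synthetase (a letter for the amino acid, followed by ARS). It also took EPRS1, FARSA, FARSB, TARS3 and the scaffold proteins AIMP1, AIMP2 and EEF1E1. This gave 39 probe sets for 37 genes, of 19460 probe sets with a single symbol for 18417 genes. They encode 20 cytosolic enzymes or subunits, 16 mitochondrial enzymes and the scaffold AIMP1. AIMP2 and EEF1E1 were not analysed here.

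The arrays compare 2 stable transfectants of SW480, an established human colorectal adenocarcinoma line, with 1 array in each group. The first group carried the TFAP2E coding sequence in the pTarget mammalian expression vector, and the control group carried the vector alone. TFAP2E encodes AP-2 epsilon, a DNA-binding transcription factor. Both were kept under Geneticin, single clones were picked and checked for TFAP2E, and the labels do not say whether an array holds 1 clone or several, so an effect of TFAP2E and a difference between clones cannot be told apart.

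No value has a replicate, and no test, error or p-value can be given for any gene or group of genes. Values are the authors' RMA expression values on the log2 scale, and a difference is the TFAP2E array minus the empty vector array. A gene counted as measured where at least 1 array read 5.55 or more, the median over all probe sets of both arrays, and 11548 genes met this. All 37 synthetase genes did so on both arrays, with values from 6.17 to 11.34. The median difference of these 11548 genes was 0.04, their standard deviation was 0.22, and the central 95% lay between -0.37 and 0.47. The TFAP2E probe set itself read 6.81 and 6.77, so the direction of every difference rests on the labels. Of 12 epithelial markers 11 were measured, 3 higher and 8 lower on the TFAP2E array, with a median of -0.07 and a range from -0.71 (CDH1) to 1.28 (VIL1). EPCAM read 11.14 with TFAP2E and 11.20 without, and KRT18 read 12.55 and 12.57. Of the other markers, 8 of 10 fibroblast, 6 of 8 endothelial and 7 of 10 leukocyte markers were dim.

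The synthetase genes read slightly higher on the TFAP2E array across almost the whole family. Of the 37 genes 33 were higher and 4 were lower, with a median difference of 0.19, where 59.2% of all measured genes were higher and 39.5% lower. With 3 other scalings of the arrays 30 to 31 of the 37 lay above 0, since TARS1, IARS1 and PARS2, all near 0, could change sign. Under these scalings the median of all measured genes was 0.006, 0.018 and -0.001, and their share above 0 was not counted. The differences were small in size. At 1.1-fold 26 genes were higher and 1 was lower, where 30.7% of all genes passed upward and 16.2% downward. At a log2 difference of 0.32 or more 3 were higher (GARS1, VARS1 and NARS2) and 0 lower, with HARS2, WARS1 and FARSB just short of this threshold before rounding, against 7.9% and 3.8% of all genes. With each of the 3 other scalings NARS2 fell short too, at 0.27 to 0.29, and 2 genes passed. At 1.5-fold 0 passed in either direction, against 0.892% of all genes higher and 0.606% lower, and at 2-fold again 0, against 0.0866% and 0.113%. The family therefore differed from the background in how many members lay above 0 and not in how many passed the larger folds, where its share was near that of all genes. Each of the 37 differences lay inside the central 95% of genes.

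**Figure D1:**
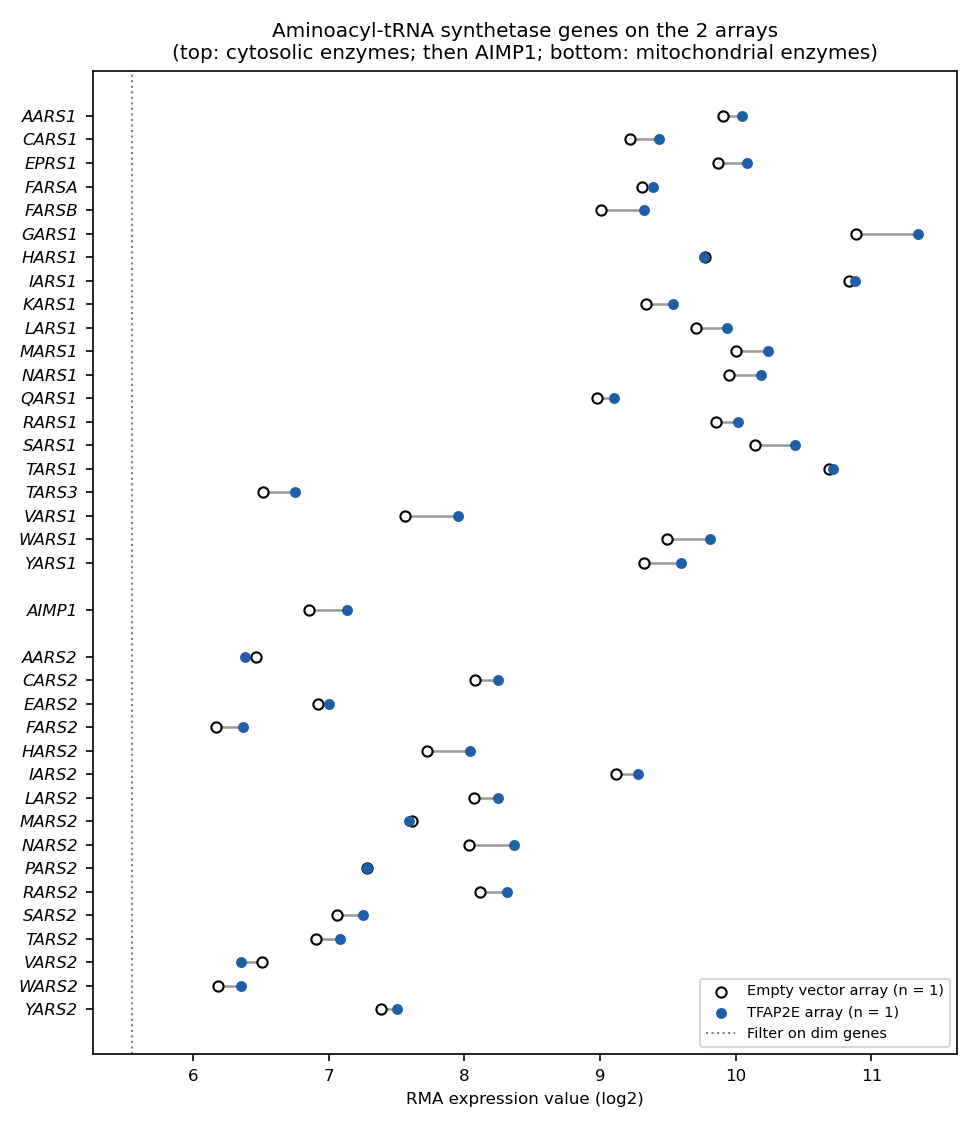
RMA expression values (log2, horizontal axis) of the 37 genes on the empty vector array (open circles) and the TFAP2E array (filled circles), with a grey line joining the values of a gene; cytosolic enzymes are at the top, AIMP1 below them and mitochondrial enzymes at the bottom. The filled circle lies to the left for HARS1, MARS2, AARS2 and VARS2, on the open one for PARS2 and to the right for the other genes, and the spacing between the circles is below 0.5 for each gene.

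Among the cytosolic enzymes 19 of 20 were higher on the TFAP2E array and 1, HARS1, was lower, with a median difference of 0.22. Of all measured genes 59.2% were higher. Glycyl-tRNA synthetase GARS1, whose gene supplies the cytosolic and the mitochondrial enzyme, read 11.34 on the TFAP2E array and 10.89 on the empty vector array. Its difference of 0.45, or 1.37-fold, was the largest of the family and exceeded that of 97.2% of all measured genes. GARS1 also lay among genes that were higher: the 20 measured genes on either side of it on chromosome 7 had a median difference of 0.18, the highest such value for any of the 37 genes. How far that neighbourhood bears on GARS1 was not tested; relative to it, GARS1 was higher by 0.27.

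Valyl-tRNA synthetase VARS1 followed, at 7.95 against 7.56, a difference of 0.39 or 1.31-fold. Both of its probe sets held identical values and were counted once. The neighbours of VARS1 on chromosome 6 had a median of 0.00, so it stood apart from them by 0.38. Tryptophanyl-tRNA synthetase WARS1, known as an interferon-induced gene, read 9.81 and 9.49 (difference 0.32). FARSB, the beta subunit of the cytosolic phenylalanyl-tRNA synthetase, read 9.32 and 9.01 (difference 0.32). Its partner FARSA, the catalytic alpha subunit of the same enzyme, read 9.39 and 9.31, a difference of 0.09. The 2 subunits of that enzyme thus lay at the upper end of the family and near the median of all genes, respectively.

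Seryl-tRNA synthetase SARS1 read 10.44 on the TFAP2E array and 10.14 on the empty vector array (difference 0.30), and tyrosyl-tRNA synthetase YARS1 read 9.60 and 9.32 (0.28). The next 7 cytosolic genes lay in a narrow band of differences from 0.20 to 0.24. They were the second threonyl enzyme TARS3 (6.75 and 6.51), asparaginyl NARS1 (10.19 and 9.95), methionyl MARS1 (10.24 and 10.0), leucyl LARS1 (9.94 and 9.71), cysteinyl CARS1 (9.44 and 9.22), the fused glutamyl-prolyl enzyme EPRS1 (10.08 and 9.87) and lysyl KARS1 (9.54 and 9.34). KARS1, like GARS1, serves both compartments. Arginyl RARS1 differed by 0.16, alanyl AARS1 by 0.14 and glutaminyl QARS1 by 0.13.

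At the lower end stood isoleucyl IARS1, at 10.88 and 10.83, threonyl TARS1, at 10.72 and 10.69, and histidyl HARS1, at 9.77 and 9.78. The differences of IARS1 (0.05) and TARS1 (0.03) were at the median of all genes and turned negative under some of the alternative settings. HARS1 differed by -0.01. The 2 threonyl genes of this group did not read alike, with 0.24 for TARS3 and 0.03 for TARS1. Leucyl-tRNA synthetase, which besides charging tRNA is known as a leucine sensor for mTORC1, lay in the middle of the group.

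The multisynthetase complex of animal cells holds a fixed subset of the cytosolic enzymes together on 3 scaffold proteins. All 8 of its measured members were higher on the TFAP2E array (7 enzymes and AIMP1), with a median difference of 0.21. Among all measured genes 59.2% were higher. AIMP1, a scaffold and the precursor of the cytokine EMAP II, read 7.14 and 6.86 and had the largest difference of the complex, 0.28 or 1.21-fold. The 7 enzymes ran from 0.05 for IARS1 to 0.23 for MARS1, with a median of 0.20. The 13 cytosolic enzymes outside the complex had a median of 0.24 and a wider range, from -0.01 to 0.45. Grouping by the 2 structural classes, which differ in the fold of the catalytic domain, separated the cytosolic genes less: the 10 of class I and the 10 of class II both had a median of 0.22. EPRS1, which joins an enzyme of each class, was counted in class I.

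**Figure D2:**
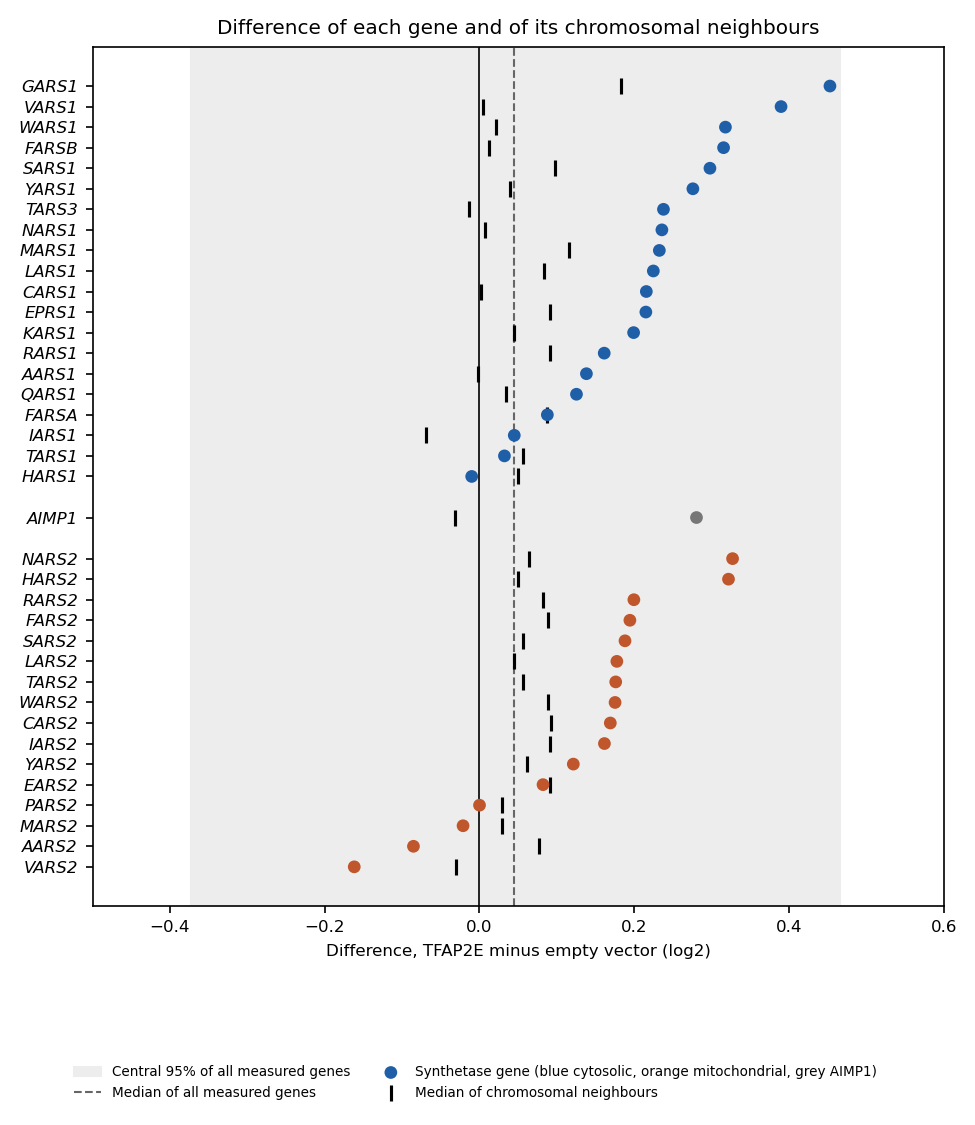
Difference between the TFAP2E and the empty vector array (log2, horizontal axis) for each cytosolic enzyme (blue), AIMP1 (grey) and each mitochondrial enzyme (orange), with a black tick for the median of up to 20 measured genes on either side on the chromosome; the grey band is the central 95% of all measured genes, the dashed line their median of 0.04. Most points lie to the right of their tick, and the tick of GARS1, at 0.18, is the one farthest to the right.

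Many cytosolic synthetase genes are known targets of ATF4, the transcription factor that is made when the kinase GCN2 senses uncharged tRNA. A list of 12 synthetases widely reported to be induced through ATF4 (AARS1, CARS1, EPRS1, GARS1, IARS1, LARS1, MARS1, NARS1, SARS1, TARS1, WARS1 and YARS1) had 12 of 12 higher, with a median difference of 0.23. The other 8 cytosolic genes had 7 higher and a median of 0.18, where 59.2% of all measured genes were higher. The ranges overlapped almost wholly, at 0.03 to 0.45 for the list and -0.01 to 0.39 for the rest. VARS1 and FARSB, both off the list, had the second and the fourth highest differences of the cytosolic group, while IARS1 and TARS1, both on it, were among the 3 lowest. ATF4 itself read 10.64 on the TFAP2E array and 10.43 on the control array (difference 0.21).

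ATF4 acts through a composite element shared with C/EBP proteins, spelled TGATGCAA in its commonest form and TGATGNAA in a looser one that includes it. Promoters of 300 bases, 250 before and 50 after the start site, were available from RefSeq (GRCh38.p14) for 31 of the 37 genes, some with several start sites. On either strand, TGATGCAA occurred in 6 of the 16 cytosolic genes with a promoter and in 0 of 14 mitochondrial genes. Counted by promoter sequence, it occurred in 6 of 21 cytosolic and 0 of 18 mitochondrial ones, where 0.866% of all 35116 held it. The looser form added GARS1 and the mitochondrial YARS2. It occurred in 7 of 21 cytosolic and 1 of 18 mitochondrial promoter sequences, where 3.62% of all promoter sequences held it. The stretches that hold these matches are shown so that the element and its surroundings can be compared between genes. They are written 5′ to 3′ on the strand of the gene, with the matched element in capitals (TTGCATCA is TGATGCAA read on the other strand, and TTTCATCA is TGATGAAA).
TARS1 (chr5:33440959-33440982, plus strand): cctttcgaTTGCATCAgctggtcc
GARS1 (chr7:30594834-30594863, plus strand): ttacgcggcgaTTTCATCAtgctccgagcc
IARS1 (chr9:92293698-92293721, minus strand): ttttcagcgcgTTGCATCAcctcc
CARS1 (chr11:3057418-3057436, minus strand): cggggcggcggTTGCATCA
MARS1 (chr12:57488053-57488071, plus strand): gccggttccggTTGCATCA
AARS1 (chr16:70289675-70289704, minus strand): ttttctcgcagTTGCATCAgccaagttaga
NARS1 (chr18:57621807-57621830, minus strand): acgctctcTGATGCAAcgccggaa
YARS2 (chr12:32756076-32756105, minus strand): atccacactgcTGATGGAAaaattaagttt

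In 4 of the 6 genes with TGATGCAA the element lay in the same orientation at or close to the start site, with its first base at -13 in IARS1, -4 in MARS1, -2 in CARS1 and 3 in TARS1, where 1 is the first transcribed base and there is no position 0. AARS1 held it in that orientation too, but far upstream, at -187, and NARS1 in the opposite one, at 15. The matches of TARS1 and GARS1 belong to the second of 2 start sites. The differences of genes with and without the element overlapped. The 6 cytosolic genes with TGATGCAA had a median difference of 0.18, from 0.03 to 0.24, and the other 10 with a promoter sequence had a median of 0.21, from -0.01 to 0.45. For the looser TGATGNAA the order was turned, with a median of 0.22 for the 7 genes with it and 0.20 for the 9 without. The AP-2 consensus GCCNNNGGC, which is its own reverse complement, occurred in 4 of 16 cytosolic and 5 of 14 mitochondrial genes. Counted by promoter sequence, it occurred in 4 of 21 cytosolic and 5 of 18 mitochondrial ones, where 23.2% of all promoter sequences held it. A match is a description of these letters only.

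The mitochondrial enzymes, which charge the tRNAs encoded by mitochondrial DNA, were also mostly higher on the TFAP2E array. Of 16 genes 13 were higher and 3 lower, with a median difference of 0.17, where 59.2% of all measured genes were higher. Asparaginyl NARS2 read 8.36 with TFAP2E and 8.04 with the empty vector, and differed by 0.33. Histidyl HARS2 read 8.04 and 7.72, a difference of 0.32. These 2 genes stood clear of the others in the group, since the next difference was 0.20.

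The middle of the mitochondrial group was tight, with 8 genes between 0.16 and 0.20. Arginyl RARS2 read 8.32 and 8.12, phenylalanyl FARS2 6.37 and 6.17, seryl SARS2 7.25 and 7.06, and leucyl LARS2 8.25 and 8.07. Threonyl TARS2 read 7.08 and 6.91, tryptophanyl WARS2 6.36 and 6.18, cysteinyl CARS2 8.25 and 8.08, and isoleucyl IARS2 9.28 and 9.12. In each of these 8 genes the TFAP2E array held the higher value. Tyrosyl YARS2 differed by 0.12 and glutamyl EARS2 by 0.08, and EARS2 turned negative once its chromosomal neighbours were subtracted.

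The other 4 mitochondrial genes were level or lower. Prolyl PARS2 read 7.28 on both arrays and counts among the higher genes only in digits beyond these. Methionyl MARS2 read 7.60 and 7.62 (difference -0.02), alanyl AARS2 6.38 and 6.47 (-0.09) and valyl VARS2 6.35 and 6.51 (-0.16). VARS2 had the lowest difference of the whole family, 1.12-fold lower on the TFAP2E array, and only 13.6% of all measured genes lay below it. Its second probe set read 6.30 and 6.46. The difference was -0.16181 for both probe sets, so the second was not taken as an independent reading. MARS2, AARS2 and VARS2 stayed below 0 under every scaling and filter tried that measured them. Within the mitochondrial group the 9 genes of class I had a median of 0.16 and the 7 of class II a median of 0.19.

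The cytosolic and mitochondrial sets differed little from each other as wholes. The cytosolic median was higher than the mitochondrial one by 0.05, well within the range of differences inside either set, and this has no test. Other genes at similar array levels had medians close to that of all genes. The 7904 other genes with a mean value in the range of the cytosolic enzymes had a median difference of 0.05, with 61.2% higher, and the 7836 in the range of the mitochondrial enzymes a median of 0.05, with 60.3% higher. After the median of the chromosomal neighbours was subtracted, 18 of 20 cytosolic and 11 of 16 mitochondrial genes lay above 0, with medians of 0.15 and 0.08. On that scale the median of all measured genes was 0.0002, and their share above 0 was not counted.

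Matched by amino acid, the 2 compartments went separate ways for some amino acids. For 12 amino acids each set had a single gene. The cytosolic gene had the larger difference in 8 and the mitochondrial gene in 4, with a median gap of 0.08. The widest gap was that of valine, where VARS1 (0.39) exceeded VARS2 (-0.16) by 0.55. Methionine (0.23 for MARS1 and -0.02 for MARS2) and alanine (0.14 for AARS1 and -0.09 for AARS2) followed, with gaps of 0.25 and 0.22. Leucine and cysteine pairs lay close together, with gaps of 0.05 each. EPRS1, at 0.22, exceeded both of its mitochondrial counterparts, EARS2 and PARS2. FARS2, a single-chain enzyme, lay between the subunits FARSA and FARSB of the cytosolic one. TARS2, at 0.18, likewise lay between the cytosolic threonyl genes TARS1 (0.03) and TARS3 (0.24).

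**Figure D3:**
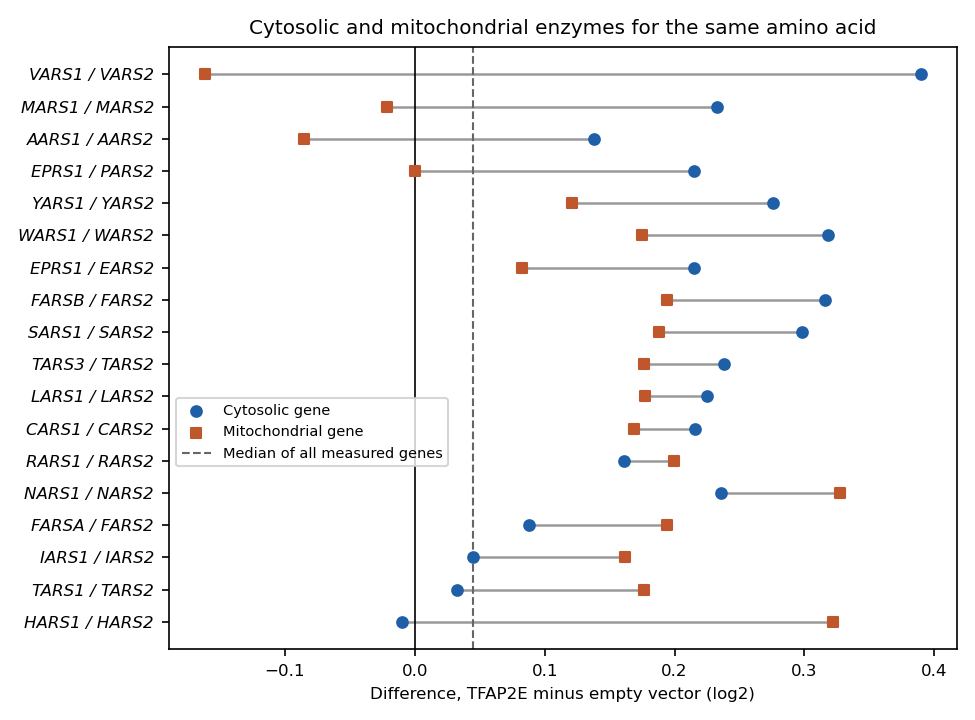
Difference between the TFAP2E and the empty vector array (log2, horizontal axis) for the cytosolic gene (blue circle) and the mitochondrial gene (orange square) of the same amino acid, ordered by the gap between them; EPRS1, FARS2 and TARS2 appear in 2 rows each, and the dashed line marks the median of all measured genes, 0.04. Valine is at the top, with 0.39 against -0.16, and histidine at the bottom, where the order is turned, with -0.01 against 0.32.

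Histidine was the amino acid with the widest gap in the other direction. HARS1 (9.77 on the TFAP2E array and 9.78 on the empty vector array) and HARS2 (8.04 and 7.72) differed by -0.01 and 0.32, a gap of -0.33. The 2 genes lie head to head on chromosome 5, with their annotated start sites 85 bases apart, so that both share their chromosomal neighbours, whose median difference was 0.05. The 84 bases between the start sites (chr5:140691371-140691454, GRCh38.p14) are shown because a single short interval separates both start sites. They are written on the plus strand, from HARS1 on the left to HARS2 on the right, with each CCGGAA (the core bound by ETS factors) or its reverse complement TTCCGG in capitals.
HARS1-HARS2: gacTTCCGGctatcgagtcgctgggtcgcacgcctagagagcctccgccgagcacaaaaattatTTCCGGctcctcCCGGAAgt

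The interval held 3 matches of that core. Over the family's 42 promoter sequences, CCGGAA occurred on either strand in 14 of 21 from cytosolic genes and 9 of 18 from mitochondrial genes. It occurred in 0 of 3 from AIMP1 and in 17.2% of all promoter sequences. Counted by gene, 12 of 16 cytosolic and 8 of 14 mitochondrial genes held it. The matches between HARS1 and HARS2 count in both groups. Among the 12 amino acids with a single gene in each set, isoleucine, asparagine and arginine were the others in which the mitochondrial gene had the larger difference, with gaps of -0.12, -0.09 and -0.04. IARS2 stood at 0.16 where IARS1 stood at 0.05. IARS2 and EPRS1 are near neighbours on chromosome 1, and their neighbourhoods had the same median, 0.09.

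Genes that act just before and after tRNA charging were higher as well. Of 24 measured genes of tRNA maturation and export, 21 were higher and 3 lower, with a median of 0.23, and 4 passed the log2 threshold of 0.32 upward, where 59.2% of all genes were higher and 7.9% passed. The RNase P subunits POP1 (0.50) and RPP40 (0.48) and the tRNA exporter XPOT (10.13 against 9.74, difference 0.39) led, and the tRNA 3′-end nuclease ELAC2 (-0.18), the exporter XPO5 (-0.04) and the tRNA methyltransferase TRMT1 (-0.04) were lowest. All 8 measured genes of other tRNA charging and quality control were higher, with a median of 0.16. There the D-aminoacyl-tRNA deacylase DTD2 (0.47) led, followed by GATB (0.38) and QRSL1 (0.26), subunits of the amidotransferase that makes mitochondrial glutaminyl-tRNA. The lowest were GATC (0.09), the third subunit of that enzyme, DTD1 (0.02) and the selenocysteine synthase SEPSECS (0.01).

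Elongation factors receive the charged tRNAs. Of 9 cytosolic ones 7 were higher, with a median of 0.15, from EEF1A2 (9.03 against 8.32, difference 0.71), EEF1D (0.24) and EIF5A2 (0.18) to EEF1B2 (0.05), EEF2 (-0.02) and the kinase EEF2K (-0.08). Of 13 mitochondrial translation factors 11 were higher, with a median of 0.20. Beside the counts of both lists, 59.2% of all measured genes were higher. The initiation factor MTIF2 (8.90 against 8.31, difference 0.59), the COX1 translation activator TACO1 (0.43) and the RNA-binding protein LRPPRC (0.27) led, and TFB1M (0.06) and the release factor genes MTRF1 (-0.01) and MTRF1L (-0.10) were lowest. The medians of these lists, 0.15 to 0.23, lay on both sides of the 0.19 of the synthetase family.

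Ribosomal protein genes were mostly higher in both compartments, at 91.5% of the mitochondrial and 79.7% of the cytosolic ones, where 59.2% of all measured genes were. Of 71 mitochondrial ribosomal protein genes 65 were higher, with a median of 0.16, between MRPL47 (0.52), MRPL1 (0.48) and MRPS17 (0.43) at the upper end and MRPS21 (-0.07), MRPL17 (-0.15) and MRPL52 (-0.16) at the lower. Of 59 cytosolic ribosomal protein genes 47 were higher, with a median of 0.15, between RPL24 (0.50), RPS28 (0.42) and RPS21 (0.41) and RPS23 (-0.23), RPL27 (-0.23) and RPL26 (-0.33). The mitochondrial synthetases (0.17) and ribosomal proteins (0.16) had almost the same median.

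**Figure D4:**
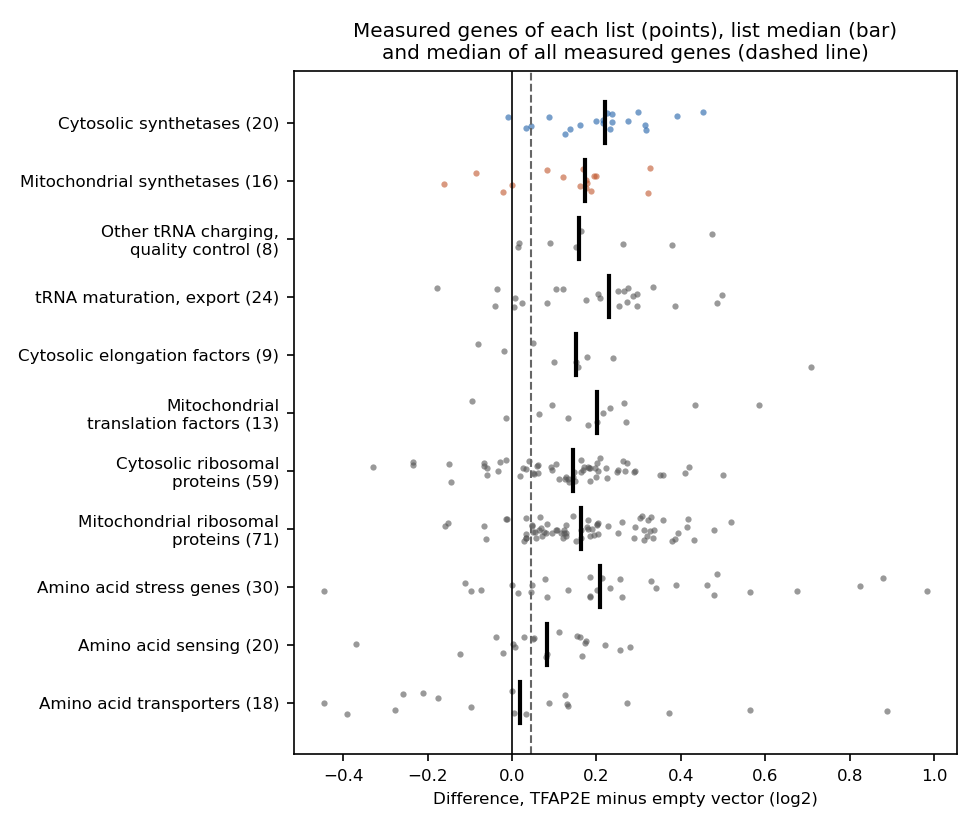
Difference between the TFAP2E and the empty vector array (log2, horizontal axis) for the measured genes (points, number in brackets) of the cytosolic synthetases, the mitochondrial synthetases and 9 other lists; the bar is each list's median and the dashed line the median of all measured genes, 0.04. Medians of the synthetase, tRNA and translation lists lie between 0.15 and 0.23, that of amino acid sensing at 0.08 and that of amino acid transporters at 0.02.

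Amino acid stress genes, the wider set that ATF4 and its partners control, had a similar median and a longer upper tail. Of 30 measured genes 25 were higher and 4 lower, with a median of 0.21, and 11 passed the log2 threshold of 0.32 upward, where 59.2% of all genes were higher and 7.9% passed. The largest differences were those of the mTORC1 inhibitor DDIT4 (0.98), the cystathionine lyase CTH (6.92 against 6.05, difference 0.88) and the factor DDIT3 (0.82), each above that of GARS1. The lowest were JDP2 (-0.11) and both chains of the leucine transporter, SLC3A2 (-0.10) and SLC7A5 (10.72 against 11.16, difference -0.45). This list had been described from these arrays before, and it is no independent evidence of its direction.

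Amino acid transporters and sensing genes had lower medians than the synthetases. The transporters of the stress list, among them SLC7A5 and SLC7A11, also belong to the transporter list. Without them 23 of 25 measured stress genes were higher, with a median of 0.23, where 59.2% of all measured genes were higher. Of 18 measured amino acid transporters 10 were higher and 7 lower, with a median of 0.02. This was 55.6% higher, against 59.2% of all measured genes. SLC7A7 (7.18 against 6.29, difference 0.89), the cystine transporter SLC7A11 (0.56) and the arginine transporter SLC7A2 (0.37) were highest. The glutamine transporter SLC1A5 (-0.28), the proton-coupled transporter SLC36A1 (-0.39) and SLC7A5 (-0.45) were lowest. Of 20 amino acid sensing genes 16 were higher, with a median of 0.08, led by IMPACT (0.28), an inhibitor of GCN2, and the Ragulator subunits LAMTOR5 (0.26) and LAMTOR4 (0.22). RRAGC (-0.04), MTOR (-0.12) and the leucine sensor family member SESN1 (-0.37) were lowest. EIF2AK4, which encodes GCN2, the kinase that binds uncharged tRNA, read 8.69 on both arrays.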

How the data were processed

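For each of the 2 arrays the authors deposited log2 values by probe set. These are RMA values, per the submitters' processing notes. The sources used here do not give its version. RMA includes a step that brings the arrays toward a common distribution, which can hide a change of all transcripts at once; the deposited columns still differ slightly, with medians of 5.54 and 5.56. Of 33297 probe sets, 19460 had a single symbol in the platform annotation, 1754 several and 12083 none. Of those with a single symbol, 19429 were matched to RefSeq (GRCh38.p14) by gene identifier and took the symbol given there. For genes with several probe sets the one with the highest mean was used, and 11548 of 18417 genes passed the filter at 5.55. Arrays give no counts; their number limits the precision.

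Genes are named by a rule: every synthetase gene, TFAP2E, and the 3 highest and 3 lowest of each list, where lists are the tRNA, translation, ribosomal and amino acid lists of the report; ATF4, EIF2AK4, EPCAM, KRT18, CDH1 and VIL1 were added after their values were seen. The members and lists were chosen with earlier results of these data known, and so were the motifs. Alternatives were 3 scalings, 4 filters, averaging over all probe sets of a gene, subtraction of chromosomal neighbours, other folds, means for medians, and the cytosolic set without GARS1 and KARS1. Scripts ran in Python 3.11.15, with statsmodels 0.14.6 for loess. The steps that give the differences and the neighbour medians were tested on simulated data, and the motif search was not.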

Additional observations from a re-analysis of the deposited data

How the results depend on the processing

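The median difference of the cytosolic enzymes stayed between 0.15 and 0.22, that of the mitochondrial enzymes between 0.08 and 0.17, and the gap between them between 0.04 and 0.08 over the main setting and 11 alternatives. At a log2 difference of 0.32 or more 3 genes were higher; this became 2 with each of the 3 other scalings, where NARS2 lay at 0.27 to 0.29, and 1 (VARS1) after subtraction of the chromosomal neighbours, where the cause was not tested beyond the neighbours' own values. By construction it became 0 at 2-fold, and 26 higher and 1 lower at 1.1-fold, a threshold chosen after seeing the data. The filters and the averaging over probe sets left the difference of every gene they kept unchanged, so they are no check of single genes. Only the 3 scalings and the subtraction of neighbours could move these values. All 323 values of single genes under the alternatives lay within 0.22, the spread (1 SD) over all genes, of the main value. That width is larger than the family's median difference of 0.19. In every setting that measured them, 29 of the 37 genes lay above 0. The share of all measured genes that did so was not counted, so this number has no background beside it. The filter at the 75th percentile left 19 cytosolic and 8 mitochondrial genes. A further quantile normalization moved the cytosolic median to 0.17. With 1 array in each group none of these values has an error. No paired analysis was possible because only 1 array stands on each side.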
